A study of Mus musculus with 20 samples.

Results

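The mouse mitochondrial chromosome carries 37 genes, and all 37 were found among the 53465 gene identifiers of the count tables by their chromosome in the GENCODE M21 annotation. They comprise 13 protein-coding genes, 2 rRNA genes and 22 tRNA genes. The libraries were poly(A)-selected RNA-seq libraries of mouse muscle from a study of exercise training and mitochondrial remodelling. The 20 wild type libraries used here fall into 4 groups of 5, by sex (female or male) and by training state (trained or non-trained). The labels name no muscle, age, training schedule or time of collection, and no allele or agent other than wild type. They do not say whether each library came from a separate mouse, so every p-value below measures the spread between libraries, which may be technical. Further samples of the study were not analysed here.

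Mitochondrial DNA (mtDNA) is read from both strands into long precursor RNAs, and the tRNAs that lie between most of the other genes are cut out of them by the nuclear-encoded RNase P and RNase Z enzymes. The freed mRNAs encode membrane subunits of the respiratory chain and of ATP synthase, the rRNAs build the mitochondrial ribosome, and the tRNAs serve translation in the organelle. Most of the mRNAs receive a short poly(A) tail, the rRNAs receive a still shorter tail, and mature tRNAs end in CCA with no tail. A poly(A)-selected library therefore captures the 3 classes to different degrees, and a value here is a level among tailed RNA, not in the organelle. Muscle is rich in mitochondria, and endurance training is known to raise their content.

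Total counts ran from 22043145 to 38483572 per library, and 28 of the 37 genes passed the low-count filter: all 13 mRNAs, both rRNAs and 13 of 22 tRNAs. All 8 muscle fibre genes of the marker list (contractile proteins and enzymes that define skeletal muscle) were detected, and their summed level lay between 104327 and 153304 CPM (counts scaled to library size) in every library, which bears out the label muscle. Female non-trained library 1 was the deepest and had the fewest genes above 0, at 18727. Female non-trained library 3 stood apart in nuclear RNAs listed as lacking a poly(A) tail, whose summed level reached 484.5 CPM there against a group range of 173.3 to 220.6 in trained males.

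Part of the sequence of these genes is not unique in the genome. On chromosome 1 (GRCm38, chr1:24611535-24616197, minus strand) lies a block of 4663 bases with 7 annotated pseudogenes, each a copy of an mtDNA gene in the same order. It corresponds to 4662 bases of mtDNA, chrM:6381-11042, from within mt-Co1 to within mt-Nd4, a stretch that touches 8 mRNA and 5 tRNA genes. Of the 7 copies, 5 had no base that differed from the mtDNA gene over their whole length. They were Gm10925 (678 bases of mt-Atp6), Gm28437 (783 bases of mt-Co3), Gm28661 (681 bases of mt-Co2), Gm28439 (876 bases of mt-Nd4) and Gm10222 (294 bases of mt-Nd4l). A read from such a stretch cannot be placed by its sequence, and RSEM, the counting program, divides it between the loci. The start of mt-Atp6 (chrM:7927-7986, plus strand) and of Gm10925 (chr1:24614592-24614651, minus strand) is shown, from the transcript sequences of GENCODE M21 on GRCm38, because these 60 bases are the same in both.
mt-Atp6: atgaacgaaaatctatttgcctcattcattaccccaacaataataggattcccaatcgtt
Gm10925: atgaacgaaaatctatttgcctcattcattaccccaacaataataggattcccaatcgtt

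The remaining 2 copies could be told from mtDNA only at their 5′ edge. Gm28438 differed from mt-Nd3 at 1 of 345 bases, T3C counted from the first base of the mt-Nd3 gene, which lies in the start codon. Gm29216 differed from mt-Co1 at 6 of 492 bases, T1056A, C1057T, A1059G, A1060G, C1062A and A1066T counted from the first base of mt-Co1, all within the first 13 bases of the copy, and the other 479 bases were the same. The starts of both pairs are given below with the differing bases in capitals (mt-Nd3 at chrM:9459-9490, Gm28438 at chr1:24613088-24613119, mt-Co1 at chrM:6381-6420 and Gm29216 at chr1:24616158-24616197).
mt-Nd3: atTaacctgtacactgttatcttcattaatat
Gm28438: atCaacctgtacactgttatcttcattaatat
mt-Co1: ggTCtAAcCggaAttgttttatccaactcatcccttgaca
Gm29216: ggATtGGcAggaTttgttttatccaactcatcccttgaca

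These copies held a large part of the counts. The 7 of them took between 2.78% and 4.01% of all counts of a library (3.44% ± 0.389, SD, n = 20). Gm10925 had a median of 426796 counts, above the 137993 of mt-Atp6 itself, and Gm28437 had 408027 against 84887 for mt-Co3. The mtDNA gene was left with 20.3% to 34.0% of the counts of its pair for mt-Atp6 (median 24.7%) and with 12.2% to 25.4% for mt-Co3 (median 16.2%). For mt-Nd3 the share varied most, from 53.8% in male non-trained library 1 to 99.5% in female non-trained library 1, and for mt-Co1 it was 84.8% to 90.3%. The mtDNA genes mt-Co2, mt-Nd4 and mt-Nd4l kept 91.9% or more of their pairs in every library. Which locus the divided reads came from was not tested.

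**Figure D1:**
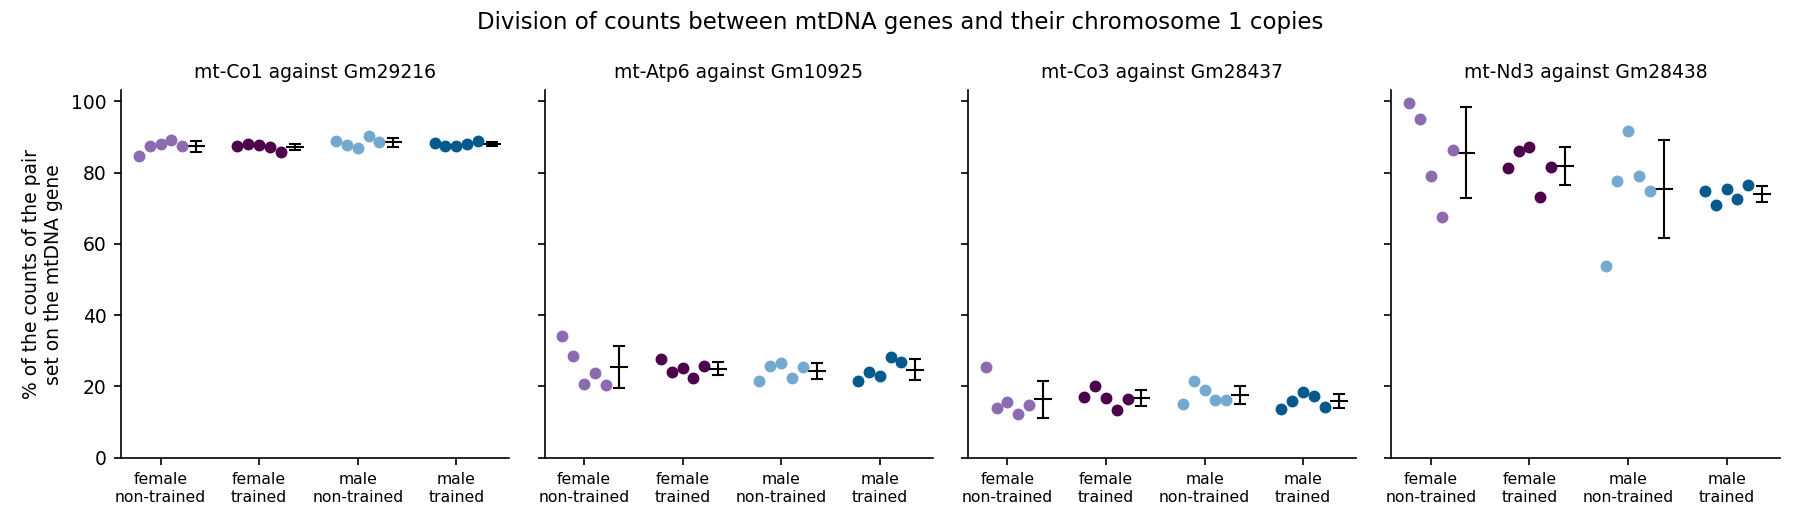
The y axis gives the percentage of the counts of an mtDNA gene and its chromosome 1 copy that was set on the mtDNA gene. Each point is 1 library, in 4 groups of 5, with the group mean ± SD beside the points. mt-Co1 sits between 84.8% and 90.3%, mt-Atp6 and mt-Co3 sit at or below 34.0%, and mt-Nd3 ranges from 53.8% to 99.5%.

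Summed with their copies, 3 genes varied less between the libraries of a group. The SD of log2 CPM within groups dropped from 0.31 to 0.17 for mt-Atp6, from 0.28 to 0.15 for mt-Co3 and from 0.23 to 0.15 for mt-Nd3. For genes with no copy, such as mt-Cytb (0.17) and mt-Nd1 (0.15), it was already at that size. Values with the copies added are given beside the values of the mtDNA genes alone, as an alternative chosen after the data had been seen.

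The order of the mRNA levels also turned on the copies. Levels between genes are compared as CPM per kb of annotated length, since the deposited TPM divide by an effective length that is almost nil for tRNAs. This choice also changes the order of short mRNAs. In median deposited TPM mt-Atp8 (13339) lay above mt-Atp6 (11998), and mt-Nd4l (9317) and mt-Nd3 (8440) lay above mt-Nd5 (8216). On the mtDNA genes alone, mt-Co1 and mt-Co2, catalytic subunits of cytochrome c oxidase (complex IV), were highest at 23007 ± 3021 and 21059 ± 2443 CPM per kb (SD, n = 20). Then came mt-Nd1 of complex I (13447 ± 1488), mt-Cytb, cytochrome b of complex III (13424 ± 1478), and mt-Nd4 of complex I (12508 ± 1487). These 3 neighbours differed by less than their SD, as did mt-Co1 and mt-Co2. That SD is a spread between libraries, so it does not measure the order of the genes within a library.

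The lower part of the order held the other subunits. mt-Nd2 of complex I lay at 9863 ± 1203 CPM per kb, and the ATP synthase subunits mt-Atp6 and mt-Atp8 at 7261 ± 1465 and 6522 ± 1135. The complex I subunits mt-Nd6, mt-Nd5, mt-Nd4l and mt-Nd3 followed at 5816 ± 679, 5314 ± 841, 5057 ± 757 and 5027 ± 1059. From mt-Atp6 down to mt-Nd3, neighbours differed by less than the larger SD of the pair, again a spread between libraries. The step from mt-Nd2 to mt-Atp6 was larger than either SD. mt-Co3, the third mtDNA subunit of complex IV, was the lowest at 3590 ± 720, below mt-Nd3 by more than either SD. With the copies added, mt-Atp6 moved from the 7th to the 1st place (29046 ± 3414 CPM per kb) and mt-Co3 from the 13th to the 3rd (21600 ± 2496), beside mt-Co1 (26214 ± 3381) and mt-Co2 (21071 ± 2460). The 3 complex IV subunits and mt-Atp6, which with mt-Atp8 lie next to one another on mtDNA, then stood above all other mRNAs.

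**Figure D2:**
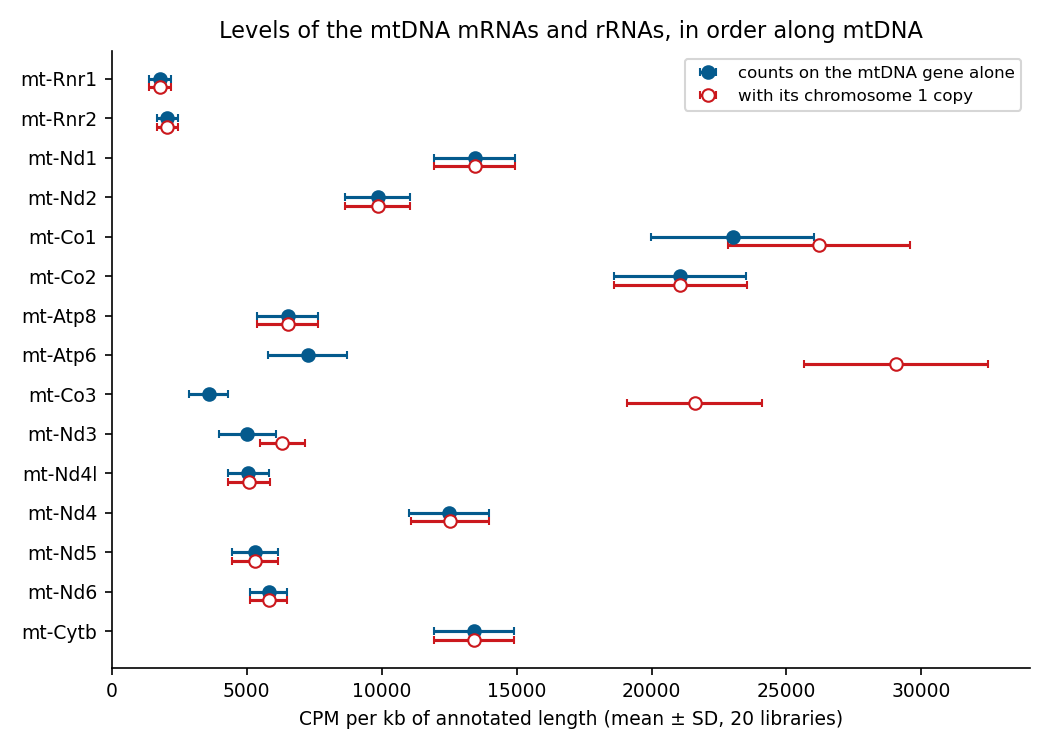
Mean level ± SD over 20 libraries in CPM per kb of annotated length (x axis) of the 13 mRNAs and 2 rRNAs, in their order along mtDNA (y axis). Filled points count the mtDNA gene alone and open points add its chromosome 1 copy. mt-Atp6 goes from 7261 to 29046 and mt-Co3 from 3590 to 21600, and mt-Rnr1 and mt-Rnr2 lie at 1798 and 2054.

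Some neighbouring genes share bases, and what the overlaps add to the counts was not tested. mt-Atp8 and mt-Atp6 share 43 bases in different reading frames, and no copy of the rest of mt-Atp8 is annotated on chromosome 1. The overlap is shown in capitals with 12 bases on each side in small letters (chrM:7915-7981, plus strand).
mt-Atp8 to mt-Atp6: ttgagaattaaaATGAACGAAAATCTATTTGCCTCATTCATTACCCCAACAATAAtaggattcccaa
The overlap runs from the start codon of mt-Atp6 to the stop codon of mt-Atp8. Only a read short enough to lie wholly within its 43 bases would fit both genes and Gm10925. Whether there were such reads was not examined. mt-Nd4l and mt-Nd4 share 7 bases, and mt-Nd5 and mt-Nd6 share 14 bases on opposite strands. The library kit keeps strand, but the sources used here do not say whether counting used it, so the level of mt-Nd6, the only mRNA gene of the light strand, cannot be told apart from RNA of the opposite strand.

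As a share of the library, the 37 genes took 11.2% to 15.85% of all counts (13.6% ± 1.39, SD, n = 20). In females the mean was 12.97% ± 1.795 without and 13.98% ± 1.14 with training, and in males 13.32% ± 1.47 without and 14.01% ± 1.22 with training (n = 5 each), and the groups overlapped throughout. Nearly all of it was mRNA, at 10.6% to 15.3% of counts. The 2 rRNAs took 0.342% to 0.659% and the 22 tRNAs 0.0175% to 0.0272%. With the chromosome 1 copies the 37 genes took 14.0% to 19.8% (17.0% ± 1.76). In bulk RNA a share of this kind cannot tell apart fewer cells or fibres of a type from less RNA per cell.

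**Figure D3:**
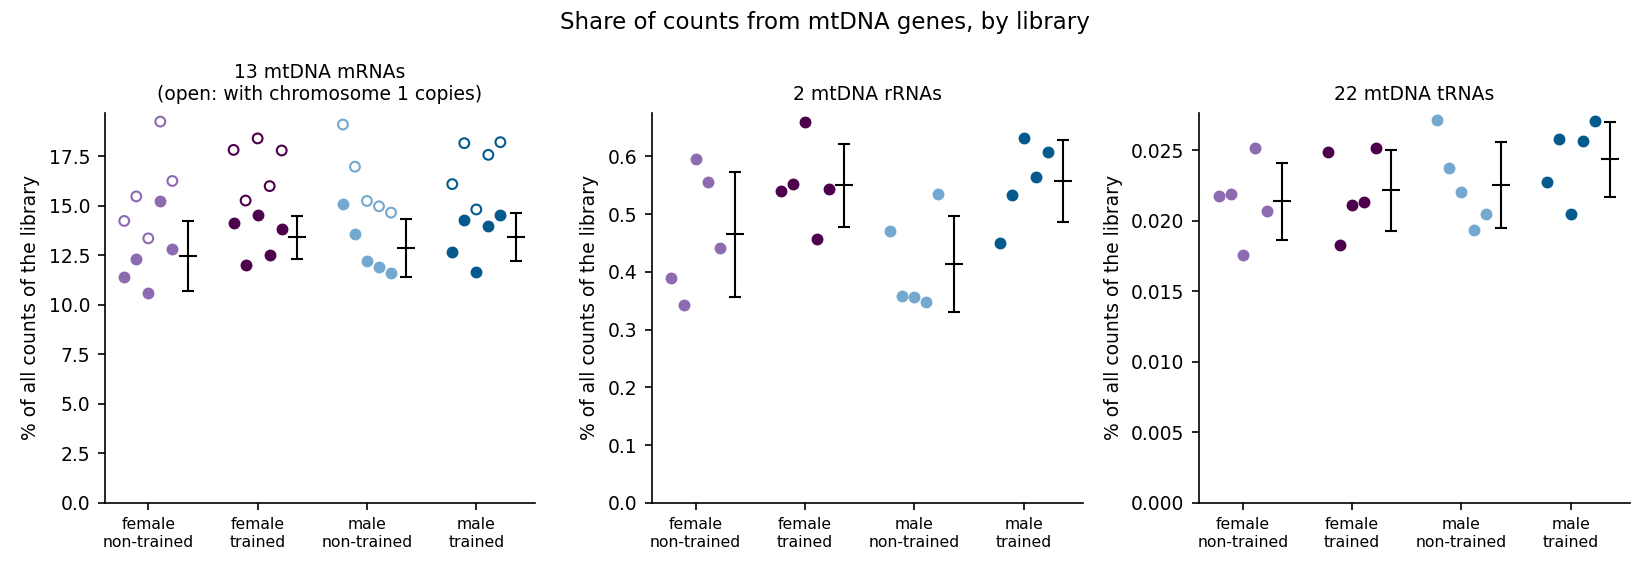
Percentage of all counts of a library (y axes, each from 0) taken by the 13 mRNAs, the 2 rRNAs and the 22 tRNAs of mtDNA. Each point is 1 library and the bars give the group mean ± SD; open points add the chromosome 1 copies to the mRNAs. All 3 classes overlap between the 4 groups.

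Within the mRNA pool the proportions of the complexes were similar over the 20 libraries, while some proportions separated groups. Complex I subunits made up 43.1% ± 1.42 of mtDNA mRNA counts, cytochrome b 11.75% ± 0.180, complex IV subunits 40.36% ± 1.495 and ATP synthase subunits 4.79% ± 0.519 (SD, n = 20). With the copies added the ATP synthase share was 12.8% ± 0.369. Complex I then held 34.49% to 36.33% in non-trained and 30.9% to 34.36% in trained females, without overlap, and the male groups overlapped. On the mtDNA genes alone the female groups overlapped for complex I (43.03% to 45.51% and 38.78% to 43.25%). Of single genes counted alone, mt-Nd4 separated the female groups, and mt-Nd3, mt-Nd5 and mt-Nd6 separated the trained sexes. No proportion was tested, and a share over all genes was not computed for comparison. The most constant gene was mt-Cytb, whose log2 share of mRNA had an SD within groups of 0.02, against 0.20 for mt-Atp8, 0.23 for mt-Atp6, 0.25 for mt-Nd3 and 0.29 for mt-Co3. With copies added it was 0.05 for mt-Atp6 and 0.04 for mt-Co3. Female trained library 2 departed most from these proportions, with complex I at 38.8% and complex IV at 45.2% of mRNA counts.

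Training was compared within each sex, as the trained minus the non-trained group, with edgeR's quasi-likelihood test over all 15709 genes that passed the filter. None of the 28 members was called at an adjusted p under 0.05 in females or in males, where 0% of all genes tested were called in either sex. At an unadjusted p under 0.05 stood 2 of 28 members in females and 3 in males, beside 1347 and 676 of all genes. The mean over both sexes called 0 of 28 members (0.0127% of all genes, 2 genes), and the difference in response between the sexes called 0 of 28 (0% of all genes). DESeq2 and limma-voom also called 0 members in each of these 4 comparisons; of all genes, limma-voom called 0 in each, and DESeq2 called 28 of 17835 in females, 7 of 31253 in males, 30 of 22485 over both and 2 of 31253 for the difference in response. Groups did not overlap for 1 of 28 members in females (1.36% of all genes) and for 0 of 28 in males (1.08% of all genes).

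None of the mRNA differences passed the test. In females all 13 lay above 0, with a median of 0.12 on the log2 scale, and in males 10 of 13 did, with a median of 0.05, while the median over all genes was 0.00 in both. With the copies added the medians were 0.15 (13 of 13 above 0) and 0.08 (11 of 13). The upper end in females, named after its values were seen, was held by mt-Co3 (0.28 ± 0.17, adjusted p = 0.69), mt-Atp8 (0.26 ± 0.14, adjusted p = 0.63) and mt-Co2 (0.24 ± 0.10, unadjusted p = 0.0242, adjusted p = 0.51, edgeR). mt-Co2 had 13873, 14125, 11405, 15297 and 13124 CPM without and 16819, 15856, 16821, 14425 and 16264 CPM with training, so 4 of 5 trained female libraries lay above all 5 others. With the copies added, unadjusted p was 0.0224 for mt-Co2 (0.24 ± 0.10), 0.0363 for mt-Co3 (0.22 ± 0.10) and 0.0486 for mt-Nd3 (0.20 ± 0.10), with adjusted p from 0.50 to 0.58 in edgeR. Without female non-trained library 1 the value of mt-Co3 alone was 0.48, and without female trained library 3 that of mt-Atp8 was 0.13, neither called.

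mt-Nd1 differed by 0.15 ± 0.10 (SE) in females and 0.05 ± 0.10 in males, and mt-Cytb by 0.11 ± 0.11 and 0.05 ± 0.11. For mt-Co1 the differences were 0.16 ± 0.12 and 0.11 ± 0.12, for mt-Atp6 0.12 ± 0.18 and 0.12 ± 0.18, and for mt-Nd6 0.06 ± 0.11 and -0.01 ± 0.11. None of these passed the test, with an adjusted p of 0.75 or more in edgeR. Over both sexes mt-Nd1 was at 0.10 ± 0.07, mt-Cytb at 0.08 ± 0.08, mt-Co1 at 0.14 ± 0.09, mt-Atp6 at 0.12 ± 0.13 and mt-Nd6 at 0.03 ± 0.08, and the male minus the female response was between -0.10 and 0.00 for these 5. The lowest values of p below 0 were those of mt-Tq in females (-0.12 ± 0.29) and mt-Co3 in males (-0.05 ± 0.17). With the copy added mt-Co3 was at 0.09 ± 0.10 in males (adjusted p = 0.99, edgeR).

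The rRNA differences with training lay above the mRNA medians in both sexes, and in females they were of the size of those of mt-Co3, mt-Atp8 and mt-Co2. mt-Rnr1, the 12S rRNA of the small ribosomal subunit (chrM:70-1024), had 1521, 1155, 2301, 1746 and 1366 CPM in the female libraries without training and 1955, 1915, 2508, 1550 and 1875 CPM with it. In males it had 1469, 1140, 1243, 1143 and 1880 CPM without training and 1536, 1826, 2005, 2061 and 2150 with it. The groups overlapped in both sexes, and 4 of 5 non-trained male libraries lay below every trained one. The log2 difference was 0.28 ± 0.17 in females (adjusted p = 0.70) and 0.48 ± 0.17 in males (adjusted p = 0.99, unadjusted p = 0.0113, edgeR). The female value was 0.43 without female non-trained library 3, 0.17 without female non-trained library 2 and 0.16 without female trained library 3.

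mt-Rnr2, the 16S rRNA of the large subunit (chrM:1094-2675), also overlapped between the groups. Female libraries had 2670, 2499, 3810, 3642 and 2850 CPM without training and 3891, 3654, 4411, 3023 and 3528 CPM with it. Male libraries had 3223, 2354, 2391, 2197 and 3197 CPM without training and 2978, 3418, 3826, 3674 and 3750 with it. In males 3 of 5 non-trained libraries lay below every trained one, and 4 of 5 trained libraries lay above every non-trained one. Its log2 difference was 0.26 ± 0.14 in females (adjusted p = 0.62) and 0.40 ± 0.14 in males (adjusted p = 0.99), and 0.33 ± 0.10 over both sexes (adjusted p = 0.35), where mt-Rnr1 was at 0.38 ± 0.12 (adjusted p = 0.38). No test was passed, and the difference between the sexes in these responses was not called either (0.20 ± 0.24 for mt-Rnr1 and 0.14 ± 0.19 for mt-Rnr2, adjusted p = 0.999 for each).

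Set against the mRNAs, female libraries held 27.9 ± 6.56 mtDNA mRNA counts for each rRNA count without training and 24.6 ± 2.54 with it, and male libraries 32.0 ± 6.13 and 24.4 ± 3.75 (SD, n = 5 each), with overlap. Nuclear RNAs listed as lacking a poly(A) tail, histone genes among them, were read beside the rRNAs, whose tails are short. Of 11 such nuclear RNAs that passed the filter, 0 lay above 0 with training in females (median -0.60) and 6 in males (median 0.03). The summed level of the list was 192.5 to 484.5 CPM in non-trained and 191.0 to 223.5 in trained females. Female non-trained library 3, the highest of its group in these RNAs, also had the highest rRNA share of its group, 0.596% of counts. Of other marker lists, 8 of 8 slow fibre genes lay above 0 with training in both sexes (medians 0.15 in females and 0.95 in males), 6 of 6 Schwann cell genes in females (1.14) and 0 of 6 in males (-0.66), and 5 of 5 erythroid genes in females (0.37) and 0 of 5 in males (-2.0). Adipocyte genes lay above 0 for 7 of 8 in females (0.77) and 3 of 8 in males (-0.05), macrophage genes for 7 of 8 in both sexes (0.26 and 0.13), tendon genes for 3 of 6 and 0 of 6 (-0.01 and -0.43) and endothelial genes for 5 of 6 and 3 of 6 (0.13 and 0.01). None of these genes was called. The part of these RNAs in the rRNA values was not tested. The log2 ratio of mt-Rnr2 to mt-Rnr1 counts was 0.95 ± 0.17 and 0.92 ± 0.07 in non-trained and trained females and 0.97 ± 0.14 and 0.89 ± 0.07 in males.

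tRNA counts were low and uneven. mt-Te, the glutamate tRNA, had 1463 to 4515 counts and mt-Ts1, a serine tRNA, 1955 to 3809, while every other tRNA stayed at or below 677. In CPM per kb of annotated length, mt-Te was at 1390 ± 294 and mt-Ts1 at 1270 ± 161, near mt-Rnr1 (1798 ± 416). That nearness depends on the length used. In deposited TPM, which divide by effective length, the medians were 15183 for mt-Te and 13681 for mt-Ts1 against 2988 for mt-Rnr1. The order that follows is again in CPM per kb. mt-Ty (tyrosine), mt-Tc (cysteine) and mt-Tn (asparagine) followed at 212 ± 44.5, 102.5 ± 20.8 and 79.0 ± 17.9. All 5 belong to the light strand, of whose 8 tRNA genes 7 passed the filter, against 6 of 14 on the heavy strand.

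mt-Te and mt-Ts1 touch or overlap other genes, and the effect on their counts was not tested. mt-Te ends at the base before mt-Nd6 on the light strand, and mt-Ts1 shares 3 bases with the end of mt-Co1 on the opposite strand. Both are shown, since they carry most tRNA counts: mt-Te in capitals with the start of mt-Nd6 in small letters (chrM:14047-14139, minus strand), and mt-Ts1 with the 3 shared bases in capitals (chrM:6870-6938, minus strand).
mt-Te to mt-Nd6: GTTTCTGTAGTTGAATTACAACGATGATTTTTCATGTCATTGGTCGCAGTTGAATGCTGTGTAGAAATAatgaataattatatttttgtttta
mt-Ts1: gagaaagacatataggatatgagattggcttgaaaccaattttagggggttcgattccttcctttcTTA
The tailed mRNA of COX1 is known to run on past its stop codon over the complement of this serine tRNA. Reads of that end and reads of the tRNA or its precursor cannot be told apart here. With training mt-Ts1 differed by 0.00 ± 0.11 in females and 0.23 ± 0.11 in males (adjusted p = 0.999 and 0.99, edgeR), and the difference between these responses was 0.22 ± 0.15.

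Heavy-strand tRNAs were near the floor. mt-Tg (glycine) had a median of 104.5 counts, mt-Tl1 (leucine) 83, mt-Ti (isoleucine) 39, mt-Th (histidine) 19, mt-Tm (methionine) 18.5 and mt-Tl2 (leucine) 14.5. Of the light strand, mt-Tq (glutamine) had 104 and mt-Ta (alanine) 56.5. The 9 tRNAs that failed the filter had medians of 6 counts or fewer, and mt-Tf (phenylalanine) had 0 in all 20 libraries. A count of 0 allows up to 3 counts, or 1.36e-05% of the shallowest library, a limit that covers counting error only. Deposited TPM gave the tRNAs 3.62% of the total against 0.0226% of counts, with effective lengths of 0 to 15.5 bases.

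mt-Tg, which carries glycine, separated trained females from the other groups. Its 5 trained female libraries were at 6.95, 5.08, 5.80, 5.84 and 6.14 CPM, and the highest of the other 15 libraries was at 4.57. How many of all genes set a group apart from all other libraries in this way was not counted. Females without training were at 2.63, 3.07, 3.5, 3.86 and 4.57 CPM, males without training at 3.98, 2.64, 2.04, 3.10 and 2.94, and trained males at 4.23, 2.76, 1.90, 3.02 and 4.57. Behind these stood 59 to 202 counts per library. In females the trained and non-trained groups did not overlap, as for 1.36% of all genes, and the log2 difference was 0.76 ± 0.21 (adjusted p = 0.37, unadjusted p = 0.00188, edgeR), which did not pass under any of 30 alternatives (adjusted p from 0.113 to 0.630). In males it was 0.16 ± 0.22 (adjusted p = 0.99), with overlap, and the difference between these 2 responses was -0.60 ± 0.30 (adjusted p = 0.999).

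mt-Tg fills the gap between mt-Co3 and mt-Nd3 without a spare base. The run is shown with mt-Tg in capitals and 24 bases of each neighbour in small letters (chrM:9367-9482, plus strand).
mt-Co3 to mt-Tg to mt-Nd3: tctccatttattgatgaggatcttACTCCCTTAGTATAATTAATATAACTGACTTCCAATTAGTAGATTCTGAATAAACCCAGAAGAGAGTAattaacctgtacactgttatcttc
The last t before the capitals is the single base left of the stop codon of mt-Co3, which the poly(A) tail completes, as it does in mt-Nd4 and mt-Cytb; these 3 of the 13 mRNA genes end 1 base past their last whole codon. mt-Tg lies inside the stretch that is repeated on chromosome 1, and no copy of it is annotated there. Reads of the tRNA and reads of uncut RNA that spans mt-Tg and its neighbours cannot be told apart in these counts.

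Between the sexes, as males minus females, 1 of 28 members was called in the trained groups, where 5.60% of all genes tested were called, 880 of 15709. It was mt-Tg, lower in trained males than in trained females by -0.85 ± 0.21 on the log2 scale (adjusted p = 0.0219, edgeR), with the 5 male libraries all below the 5 female ones. Lower in males by this test were 2.22% of all genes. The call was lost without female trained library 1 (-0.79, adjusted p = 0.0559), without male trained library 2 (-0.80, adjusted p = 0.0589) and without male trained library 3 (-0.71, adjusted p = 0.0570), and held in the other 27 of 30 alternatives, over which the adjusted p ran from 0.00324 to 0.0589. In the non-trained groups 0 of 28 members were called, where 5.21% of all genes were (2.07% lower in males), groups did not overlap for 0 of 28 members and 6.39% of all genes, and mt-Tg differed by -0.26 ± 0.22 (adjusted p = 0.52, edgeR); DESeq2 and limma-voom called 0 there as well.

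The mRNA next to it, mt-Nd3 of complex I, had the largest sex difference of the mRNAs when the mtDNA genes were counted alone; in the trained groups it is named after its values were seen. Without training the female libraries had 2470, 2208, 1400, 1571 and 1828 CPM and the male ones 1231, 1562, 1774, 1430 and 1333, with overlap. The trained groups did not overlap, with females at 2098, 2118, 2470, 1659 and 2050 CPM and males at 1559, 1612, 1369, 1599 and 1643; groups failed to overlap for 2 of 28 members and for 7.39% of all genes. The log2 difference was -0.37 ± 0.14 without training (adjusted p = 0.12) and -0.42 ± 0.14 with training (adjusted p = 0.0756, edgeR). DESeq2 called the latter (adjusted p = 0.0350), as did the fit of the 2 trained groups alone (0.0272) and the fit without female non-trained library 1 (0.0423), while the adjusted p over all 30 alternatives ran from 0.0272 to 0.193. Without female non-trained library 3 the non-trained difference was called (-0.47, adjusted p = 0.0417).

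The division of reads moved with these differences. With Gm28438 added to mt-Nd3, the differences were -0.16 ± 0.10 without training (adjusted p = 0.33) and -0.27 ± 0.10 with training (adjusted p = 0.11), and mt-Nd5 had the larger non-trained difference (0.18 ± 0.14, adjusted p = 0.49). The trained groups then overlapped for mt-Nd3, with the lowest female library at 2266 CPM and the highest male one at 2274. mt-Nd3 kept 67.6% to 99.5% of the pair's counts in non-trained females and 53.8% to 91.7% in non-trained males, and 73.2% to 87.1% and 70.9% to 76.4% in the trained groups.

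**Figure D4:**
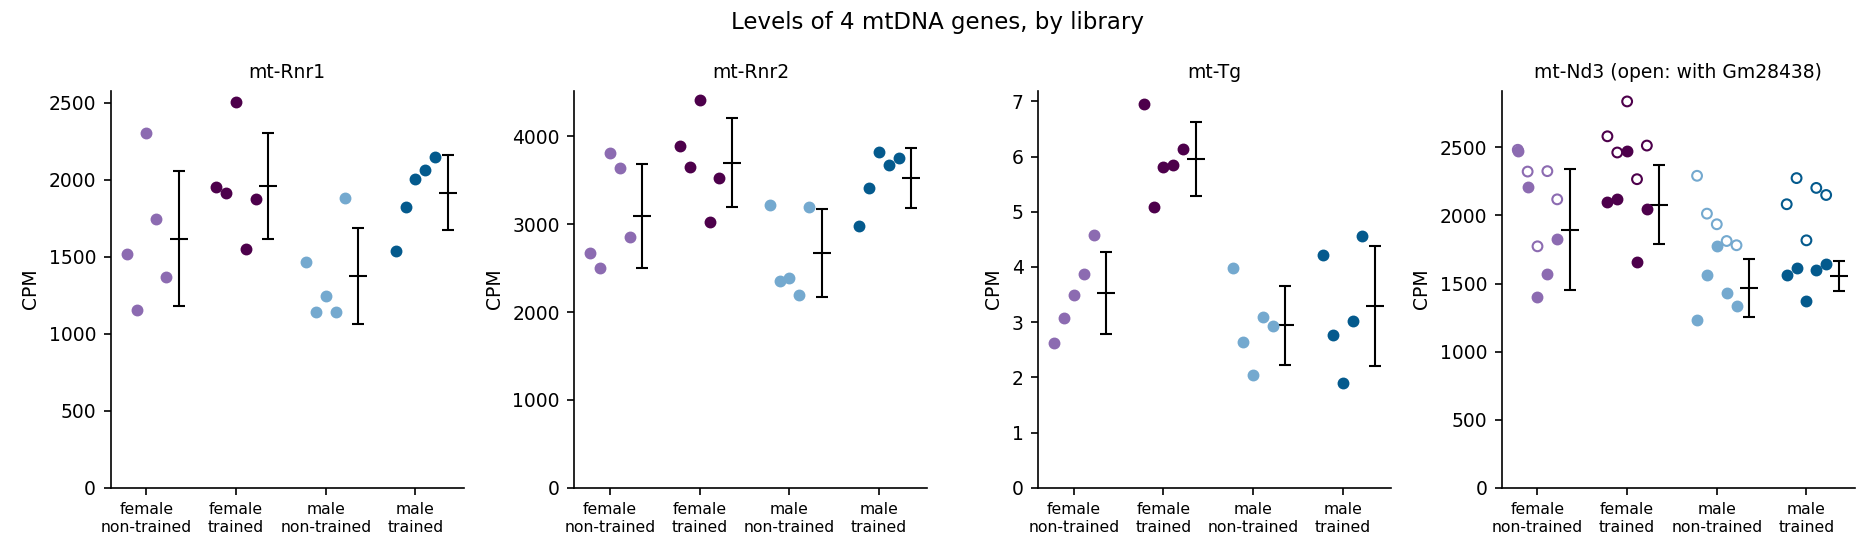
CPM (y axes, from 0) of mt-Rnr1, mt-Rnr2, mt-Tg and mt-Nd3 in each of the 20 libraries, with group mean ± SD of the filled points; open points add Gm28438 to mt-Nd3. The 5 trained female libraries lie at 5.08 to 6.95 for mt-Tg, above the 15 others, and the rRNA groups overlap.

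No other member was called between the sexes. mt-Tl2 and mt-Th, named after their values were seen, had large differences on few counts. mt-Tl2 was at -0.96 ± 0.45 without training (unadjusted p = 0.0445, adjusted p = 0.22) and at -0.80 ± 0.44 with training (adjusted p = 0.32), on 3 to 48 counts a library. mt-Th was at -0.76 ± 0.48 with training (adjusted p = 0.39, edgeR).

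Without training the mRNA median was 0.00 (5 of 13 above 0) and with training -0.07 (4 of 13 above 0). mt-Nd1 differed by -0.06 ± 0.10 and -0.15 ± 0.10, mt-Cytb by -0.01 ± 0.11 and -0.07 ± 0.11, mt-Co1 by -0.00 ± 0.12 and -0.05 ± 0.12, and mt-Atp6 by -0.11 ± 0.18 and -0.10 ± 0.18. mt-Nd6 lay at 0.14 ± 0.11 and 0.07 ± 0.11, mt-Rnr1 at -0.23 ± 0.17 and -0.03 ± 0.17, and mt-Rnr2 at -0.21 ± 0.14 and -0.07 ± 0.14. None of these passed (adjusted p 0.39 or more, edgeR). Scaling by library size without TMM factors turned the signs of mt-Co1 in both comparisons, of mt-Cytb without training and of both rRNAs with training. Above 0, the lowest p was that of mt-Nd6 without training and of mt-Tc with training (0.31 ± 0.17, adjusted p = 0.31), neither called.

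**Figure D5:**
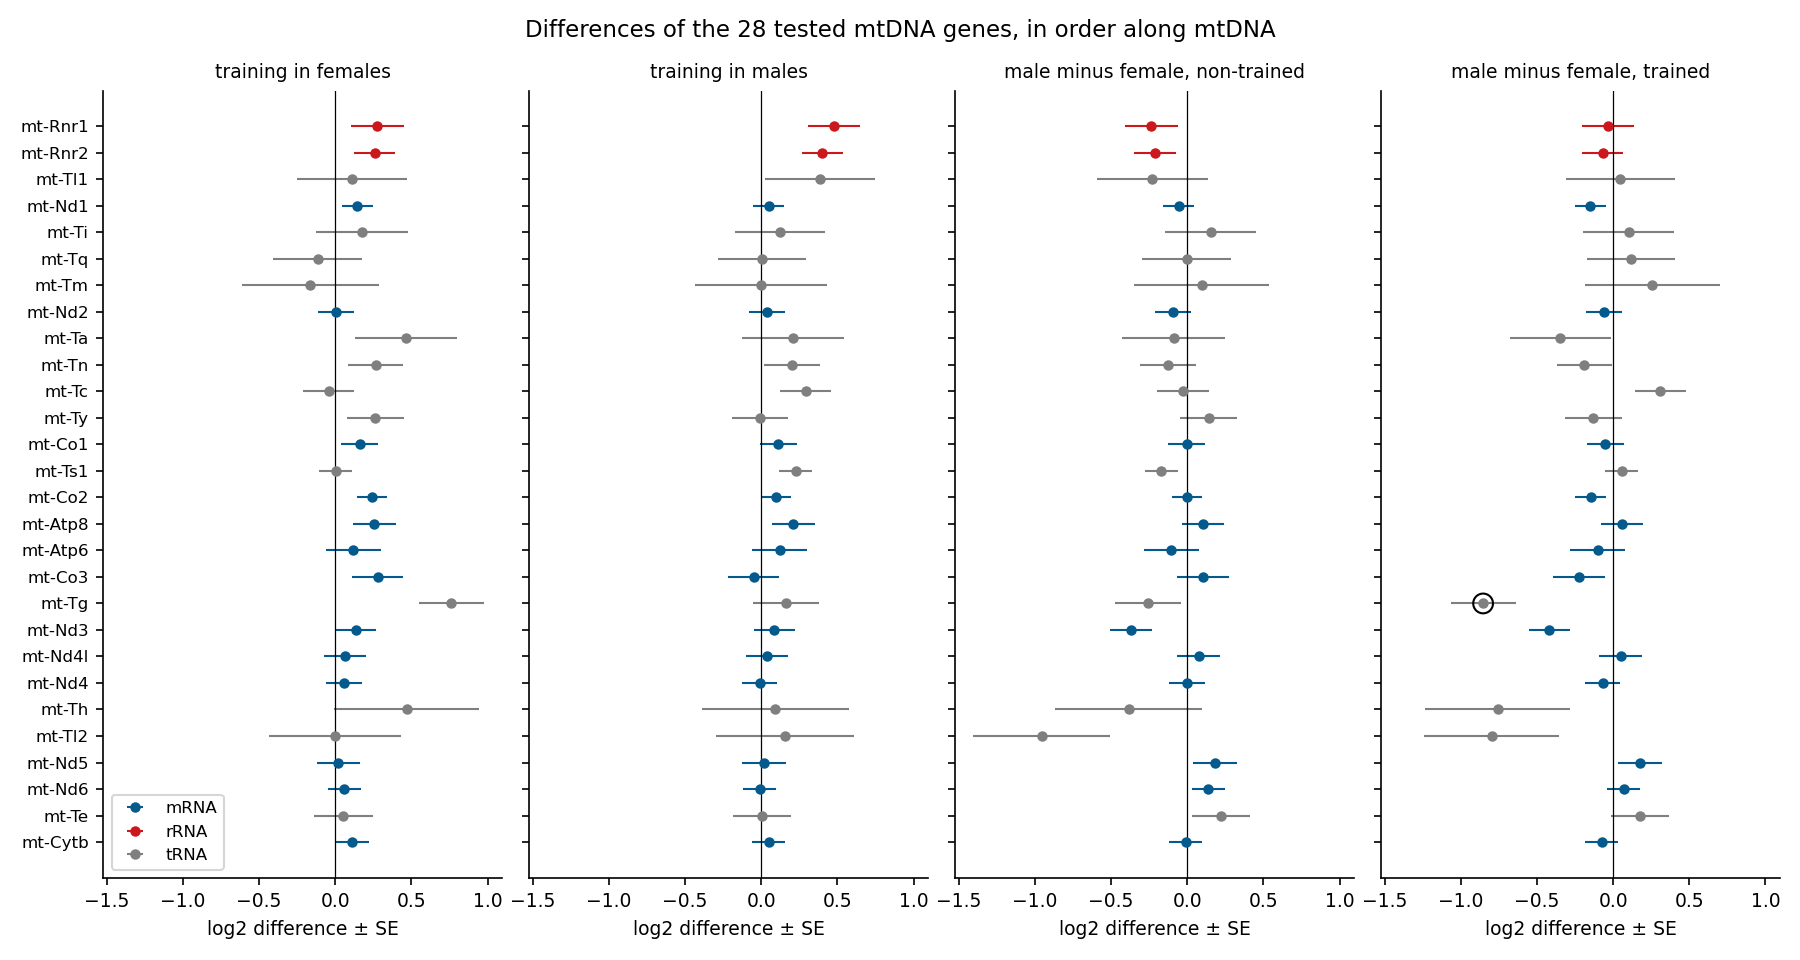
Log2 difference ± SE (x axis) of the 28 tested members, in order along mtDNA (y axis), for training in each sex and for males minus females in each training state, by edgeR. mRNAs are blue, rRNAs red and tRNAs grey, and the ringed point, mt-Tg at -0.85 in the trained groups, is the only call.

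Other cell and fibre types differed between the sexes in these libraries. Without training, 6 of 8 genes of slow fibres, which are rich in mitochondria, were called lower in males (2.07% of all genes), with a list median of -2.44. With training 1 of 8 was (2.22% of all genes), with a median of -1.87. The summed level of the 8 was 1181 to 4942 CPM in non-trained females and 354.5 to 1615 in non-trained males, and 496 to 6214 and 744 to 2015 in the trained groups. Of all 15709 genes, 493 were called higher in males without and 532 with training, and of 8 macrophage genes 6 and 4 were. Their summed level, 44.2 to 129.9 CPM in non-trained females and 148.1 to 347.7 in non-trained males, and 68.6 to 143.1 and 118.0 to 656.9 in the trained groups, stayed far below that of muscle genes. Of 5 erythroid genes 2 were called higher in non-trained males, and of 6 Schwann cell genes 1 was called lower in trained males. Adipocyte, endothelial and tendon lists had no called gene in any comparison. The part of these cells in the sex differences was not tested.

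Nuclear genes for the same complexes mostly lay above 0 with training, and none was called. The lists were chosen with earlier results known. All 36 nuclear complex I genes tested lay above 0 in females (median 0.17) and 35 of 36 in males (0.12). Medians were 0.21 and 0.17 for 9 complex III genes, 0.25 and 0.17 for 11 complex IV genes, 0.22 and 0.18 for 16 ATP synthase genes and 0.24 and 0.14 for 4 complex II genes, all above 0 in both sexes. Beside them the mtDNA mRNA medians were 0.12 and 0.05. In females the lowest p of each list belonged to Ndufb11 of complex I (0.28 ± 0.09), Sdha of complex II (0.32 ± 0.09), Uqcrc1 of complex III (0.26 ± 0.09), Ndufa4 of complex IV (0.25 ± 0.10) and Atpif1, the inhibitor of ATP synthase (0.36 ± 0.11), with adjusted p from 0.36 to 0.49. The next were Ndufs1 (0.25 ± 0.09), Sdhb (0.30 ± 0.15), Uqcrc2 (0.23 ± 0.09), Cox7b (0.24 ± 0.09) and Atp5b (0.31 ± 0.10). In males it belonged to Ndufa10 (0.21 ± 0.09), Sdhb (0.25 ± 0.15), Uqcrc1 (0.18 ± 0.09), Cox5b (0.22 ± 0.11) and Atpif1 (0.29 ± 0.11), with an adjusted p of 0.99 each, followed by Ndufb10 (0.23 ± 0.11), Sdha (0.15 ± 0.09), Uqcrc2 (0.17 ± 0.09), Cox7b (0.17 ± 0.09) and Atp5g3 (0.26 ± 0.11).

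Partner subunits were compared within each library. The log2 ratio of mt-Co1 to Cox4i1 counts, the mtDNA and nuclear subunits of complex IV, was 6.55 ± 0.26 in non-trained and 6.46 ± 0.26 in trained females and 6.54 ± 0.09 and 6.52 ± 0.02 in males (SD, n = 5 each). For mt-Atp6 and Atp5a1 of ATP synthase it was 1.47 ± 0.33, 1.40 ± 0.35, 1.49 ± 0.21 and 1.44 ± 0.19 in the same order. These ratios leave out the chromosome 1 copies, and mt-Atp6 alone held 20.3% to 34.0% of the counts of its pair. Their size and spread therefore also carry the division of reads with Gm10925. The ratio of mt-Nd6 to mt-Nd5, genes of opposite strands, was -1.66 ± 0.10, -1.60 ± 0.18, -1.71 ± 0.04 and -1.73 ± 0.04. Together with mt-Rnr2 to mt-Rnr1 these gave 16 comparisons, and no difference passed the exact two-sided permutation test (adjusted p = 0.92 for each). The lowest p was that of mt-Nd6 to mt-Nd5 between trained males and females (a difference of -0.12, unadjusted exact p = 0.111), and the smallest p that 5 against 5 allows is 0.00794, so that after adjustment over 16 comparisons no single difference could have passed.

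Of nuclear genes that copy mtDNA or transcribe and process its RNA, none was called with training, and several were lower in males. Of 22 genes for mtDNA transcription and copy number, 11 lay above 0 with training in each sex (medians 0.01 and 0.01). Mpv17 had the lowest p in females (0.23 ± 0.07, adjusted p = 0.41) and Polg2, the accessory subunit of the mtDNA polymerase, in males (-0.40 ± 0.19, 0.99), followed by Rrm2b (-0.11 ± 0.07) and Mterf4 (-0.28 ± 0.14). Of the 22 genes, 3 were called lower in males without training, where 2.07% of all genes were: Twnk, the mtDNA helicase (-0.34 ± 0.08, adjusted p = 0.0204), Mterf3, of the mitochondrial termination factor family (-0.36 ± 0.09, 0.0220), and Mgme1, a nuclease of mtDNA maintenance (-0.45 ± 0.12, 0.0282). With training, where 2.22% of all genes were called lower in males, 3 were: Mpv17, an inner membrane protein needed for mtDNA maintenance (-0.35 ± 0.07, adjusted p = 0.00553), Twnk (-0.32 ± 0.08, 0.0294) and Mgme1 (-0.41 ± 0.12, 0.0413, all edgeR). Of 36 genes tested for mitochondrial RNA processing and decay, 20 lay above 0 with training in females and 31 in males. Trmt5 (-0.32 ± 0.11) and Mto1 (0.21 ± 0.08) had the lowest p in females, and Gtpbp3 (0.28 ± 0.11) and Trmt10c (0.17 ± 0.07) in males, with none called. Of these 36, 3 were called lower in males without training (2.07% of all genes) and 0 with it (2.22% of all genes). They were Trmt10c, a subunit of RNase P (-0.30 ± 0.07, adjusted p = 0.0200), Trmt5, a tRNA methyltransferase (-0.40 ± 0.11, 0.0374), and Grsf1, an RNA-binding protein of mitochondrial RNA granules (-0.22 ± 0.06, 0.0444).

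Among nuclear respiratory chain genes, the calls between the sexes were Ndufa11 of complex I without training (-0.36 ± 0.10, adjusted p = 0.0350, edgeR), and Ndufs8 of complex I (-0.34 ± 0.09, 0.0383) and Uqcrb of complex III (-0.31 ± 0.09, 0.0429) with training, all lower in males. By the same test 2.07% of all genes were lower in males without training and 2.22% with it. Mpv17 was called under all 30 alternatives, and the other 11 calls on these nuclear genes were each lost under 3 to 17 of them. In lists with no call between the sexes the lowest p belonged, without training, to Sdhd (-0.22 ± 0.09) and Sdhb (-0.34 ± 0.15), Uqcrb (-0.22 ± 0.09) and Uqcr10 (-0.21 ± 0.10), Cox6a2 (-0.35 ± 0.12) and Cox7b (-0.19 ± 0.09), and Atp5j (-0.23 ± 0.08) and Atp5e (-0.25 ± 0.11). With training it belonged to Sdhd (-0.27 ± 0.09) and Sdhb (-0.39 ± 0.15), Cox7b (-0.26 ± 0.09) and Cox6a2 (-0.30 ± 0.12), Atp5e (-0.32 ± 0.11) and Atp5j (-0.23 ± 0.08), and, for RNA processing, Supv3l1 (0.24 ± 0.09) and Ptcd3 (-0.19 ± 0.08).

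Of 12 regulators of mitochondrial biogenesis none was called in any comparison. With training the lowest p was that of Gabpa (-0.21 ± 0.08) and Pprc1 (-0.20 ± 0.10) in females and of Ppard (0.28 ± 0.09) and Ppara (0.47 ± 0.29) in males. Between the sexes it was that of Ppard (-0.28 ± 0.09, adjusted p = 0.0788) and Gabpa (-0.21 ± 0.08) without training, and of Esrrb (-0.56 ± 0.36) and Ppargc1a, the coactivator PGC-1alpha (-0.47 ± 0.32, adjusted p = 0.44, edgeR), with training. The sex comparisons and the training comparisons share groups of libraries, so their values are not independent of one another.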

How the data were processed

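Poly(A)-selected RNA of muscle was sequenced with a directional kit, per the labels' protocols. The authors deposited expected counts and TPM per gene for each library in the format of RSEM; the submitters' processing notes name RSEM 1.3.1, STAR 2.5.1, cutadapt, Trim Galore, limma and edgeR, and GRCm38. Strand use and annotation release are not given in the sources used here. GENCODE M21 gave names and positions for 53360 of 53465 identifiers; the rest held 0.00673% of counts. Expected counts were rounded and fitted with edgeR 4.0.16 (R 4.3.3): filterByExpr with a minimum count of 10 (15709 genes), TMM, robust quasi-likelihood, 1 coefficient per group over all 20 libraries (16 residual degrees of freedom), Benjamini-Hochberg adjustment, threshold 0.05. CPM use TMM-scaled library sizes; deposited TPM served only as an alternative. Copies were pseudogenes sharing at least 90% of their 31-base words with an mtDNA gene. Ratios were tested by exact permutation. The fit was also run on simulated counts with known changes, and the share it recovered is not given here.

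Values are named for all mRNAs and rRNAs, for tRNAs that passed the filter and, per comparison, for mt-Nd1, mt-Cytb, mt-Co1, mt-Atp6, mt-Nd6, both rRNAs, any call and the lowest p in each direction; exceptions are stated. Of nuclear lists, called genes are named, up to 4 per list, otherwise the 2 of lowest p. Members and lists were chosen with earlier results of these data known. Alternatives were DESeq2 1.42.0, limma-voom 3.58.1, other scalings, filters and samples, each library left out, and, added after seeing the data, copies summed with their genes.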

Additional observations from a re-analysis of the deposited data

Results flagged for a closer look

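In 144 groups of 5 libraries, 6 held a library that lay far from the other 4 by Dixon's criterion at 95%, and chance gives about 1 in 20 groups. All values are CPM. mt-Co3 stood at 3993 in female non-trained library 1, which also had the largest share of the pair's counts set on mt-Co3 (25.4%). mt-Nd1 and mt-Nd2 were lowest at 10563 and 8357 in male trained library 3. mt-Tn was highest at 6.34 in male non-trained library 4 and at 8.55 in male trained library 5. mt-Tl2 was highest at 0.710 in male trained library 1.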

How the results depend on the processing

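Of 178 counts of called members under alternatives, 171 were within 1.5 times of the reported count. Between the trained sexes DESeq2 and the fit of only the compared groups each called 2 members (and 1371 of 16099 and 883 of 14772 of all genes), and leaving out 1 library gave 0 to 2 (0 to 1 between the non-trained sexes). mt-Rnr1 and mt-Rnr2 were not called with training under any of 30 alternatives in either sex. The 37 genes took 13.57% of counts, and 15.73% against nuclear counts alone, 18.76% without the 20 highest nuclear genes, 25.65% of TPM and 17.01% with copies; mRNAs took 15.13%, 18.04%, 21.42% and 16.49%. rRNAs took 0.6862% without the 20 highest nuclear genes and 0.602% of TPM, and tRNAs 0.02621% (nuclear), 0.03126% (without the 20) and 3.62% (TPM). Signs turned for 61 of 1781 values of single members, none above 0.119 in reported size. With limma-voom, mt-Tq was at 0.07114 (training, females) and 0.04913 (both sexes), and mt-Atp6 at -0.04408 (difference in response). For mt-Atp6 that difference was -0.0005069 under the stricter filter and -0.06431 with copies. mt-Co3 was at 0.09364 with copies and mt-Nd6 at 0.008793 without a filter (training, males). Without TMM, mt-Co1 was at 0.04318 and mt-Cytb at 0.04088 between non-trained sexes, and mt-Co1 at 0.01526, mt-Rnr1 at 0.04108 and mt-Rnr2 at 0.006386 between trained sexes; mt-Co1 was at 0.002589 under the stricter filter (non-trained). The cause was not tested.

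Leaving out 1 library at a time gave these ranges of ratio differences. mt-Rnr2 to mt-Rnr1 ran from -0.08842 to 0.007924 (training, females) and -0.04515 to 0.06165 (sexes, non-trained), and mt-Nd6 to mt-Nd5 from -0.02359 to 0.09302 (training, females). mt-Co1 to Cox4i1 ran from -0.1934 to 0.01377 (training, females), -0.04564 to 0.01289 (training, males), -0.1188 to 0.05554 (sexes, non-trained) and -0.05035 to 0.1167 (sexes, trained). mt-Atp6 to Atp5a1 ran from -0.1684 to 0.06938, -0.1248 to 0.01765, -0.07613 to 0.1127 and -0.1019 to 0.11 in the same order. The lowest adjusted p of a ratio under an alternative was 0.508. For training in females, mt-Atp6 ran from -0.006931 to 0.2631, mt-Nd6 from -0.01125 to 0.1155 and mt-Tq from -0.316 to 0.2395. In males mt-Co3 ran from -0.1154 to 0.04658 and mt-Nd6 from -0.06534 to 0.06422, and over both sexes mt-Nd6 from -0.008678 to 0.05863 and mt-Tq from -0.1543 to 0.122. The difference in response ran from -0.1363 to 0.1339 for mt-Atp6, -0.1481 to 0.04751 for mt-Co1, -0.124 to 0.01892 for mt-Cytb and -0.1249 to 0.01117 for mt-Nd6. Between non-trained sexes mt-Atp6 ran from -0.2332 to 0.03684, mt-Co1 from -0.09812 to 0.09472 and mt-Cytb from -0.09001 to 0.05024. Between trained sexes mt-Co1 ran from -0.08969 to 0.01551, mt-Rnr1 from -0.1063 to 0.0757 and mt-Rnr2 from -0.1327 to 0.006501. No paired analysis was possible because library numbers were given in accession order and pair no samples. Low counts limit the tRNAs: 9 of 22 did not pass the filter. Without it 36 of 37 members were tested, and in no comparison was a further member called.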
